A study of Mus musculus with 15 samples.

Results

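Loss of *Mtm1* in untreated skeletal muscle was examined in 8 of the 15 libraries of the series, namely the 4 untreated Mtm1-/y and the 4 untreated wild type (WT) libraries. Each library was prepared from the tibialis anterior, a fast-twitch muscle of the lower leg, of a male mouse of the 129Pas strain aged 7 weeks, and neither group had received tamoxifen. Mtm1-/y males have no functional copy of this X-linked gene in any cell, so that fibres and all other cell types of the muscle are mutant. The other 7 libraries came from tamoxifen-treated mice of both genotypes (WT + TAM, n = 4, and Mtm1-/y + TAM, n = 3). They entered the filter on low counts, the scaling factors and the estimate of the spread between libraries. Otherwise they served only for the comparison at the end and for the gene *Ighm*. Myosins, acetylcholine receptor and other denervation markers and the sarcolipin gene Sln were left aside, and the account covers the remaining functions among the 15533 genes that passed the filter on low counts. Genes left aside that also belong to another list, such as *Gadd45a* and *Cdkn1a*, were kept in the counts of that list.

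*Mtm1* encodes myotubularin, a phosphatase that removes a phosphate from phosphatidylinositol 3-phosphate and phosphatidylinositol 3,5-bisphosphate on endosomes. In muscle fibres these lipids bear on membrane traffic and on the triad, the contact of a transverse tubule with the sarcoplasmic reticulum at which an action potential triggers calcium release. Mutations in the human gene cause X-linked myotubular myopathy, a severe congenital weakness with small fibres, central nuclei and disordered triads, and Mtm1-/y mice develop a progressive muscle disease.

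Total counts were 22854090 to 45823277 in the WT libraries and 23088567 to 41410325 in the mutant libraries. The 12 genes of a skeletal muscle identity list, such as fast troponins and muscle creatine kinase, were all detected and summed to 241360 to 313540 CPM in WT and 193490 to 255380 in Mtm1-/y, with 0 called higher and 2 lower, *Acta1*, skeletal actin (-0.43 ± 0.15, adjusted p = 0.0349, and -0.36, adjusted p = 0.0786 without mutant replicate 1), and *Tnnt3*, which is described below. Without WT replicate 1 or 2 or mutant replicate 1, 2 or 4 the lower count was 1. Markers of T and natural killer cells were under the filter, and Krt5, Krt14 and Krt15, keratins of skin, had no count in any of the 8 libraries. Values of single libraries are given below in the order of replicates 1 to 4 as CPM, read counts scaled by library size and TMM factor. Log2 fold changes are Mtm1-/y relative to WT with the standard error of the edgeR quasi-likelihood fit (n = 4 in each group), and genes with a Benjamini-Hochberg adjusted p under 0.05 are termed called. Nothing in the labels states that each library is a separate animal, so p-values measure the spread between these samples.

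Mutant replicate 1 stood apart from the other mutant libraries. The first principal component of the 8 libraries (55.5% of the variance) separated the genotypes, and the second (19% of the variance) placed mutant replicate 1 at -55.8 and the other mutant libraries at 3.70 to 38.4, with WT libraries at -8.59 to -1.37. Replicate 1 lay over 1 log2 unit from the mean of mutant replicates 2 to 4 in 2019 genes (13.0% of those tested), against 660 to 784 genes for each other mutant library and 356 to 432 for each WT library measured the same way. The counts of calls in each gene list are therefore also given without it in the paragraph on that list where they changed, as are the values of named genes whose call was lost.

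Of the 15533 tested genes, 4727 were called (30.4%), with 2407 higher (15.5%) and 2320 lower (14.9%) in Mtm1-/y. Without mutant replicate 1 these were 2304 higher (14.8%) and 2233 lower (14.4%). The libraries of the groups did not overlap in 4737 genes (30.5%). Genes of mitochondrial fuel oxidation, of cell division and of satellite and endothelial cells were mostly lower or uncalled in Mtm1-/y, with 14 of 24 citric acid cycle, 24 of 36 cell cycle and 13 of 22 endothelial genes called lower. Genes of stress-responsive transcription, membrane repair, the proteasome and the cytosolic ribosome were mostly higher or uncalled, with 13 of 19 glucocorticoid-responsive, 15 of 25 membrane repair, 26 of 47 proteasome and 36 of 76 ribosomal genes called higher. The shares over all genes are the background against which the counts of each gene list are read. Where a list had 0 calls in a direction by edgeR's quasi-likelihood test, it also had 0 calls there by DESeq2 and limma-voom and 0 members at an unadjusted p under 0.05, except that fatty acid oxidation had 2 higher, the glucocorticoid-responsive list 1 lower and the collagen list 2 lower members at an unadjusted p under 0.05 and the collagen list 1 lower call by each of the other tools. The genes called lower held 35.3% to 36.5% of all counts in the WT libraries and 22.7% to 28.6% in the mutants, and those called higher 7.82% to 9.08% in WT and 13.4% to 18.1% in the mutants. The genes were called from these same libraries, so the direction of these differences follows from the choice of genes, and their size may be inflated by it. The distribution of calls depended on expression level. Of the 381 genes with a mean above 8 on the log2 CPM scale, 26.2% were called lower and 17.3% higher, whereas of the 3942 genes between 4 and 6 these were 15.5% and 20.9%. Among long intergenic non-coding RNAs, 80 of 441 (18.1%) were called higher and 48 (10.9%) lower, and among processed pseudogenes 5.05% and 4.21%.

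**Figure D1:**
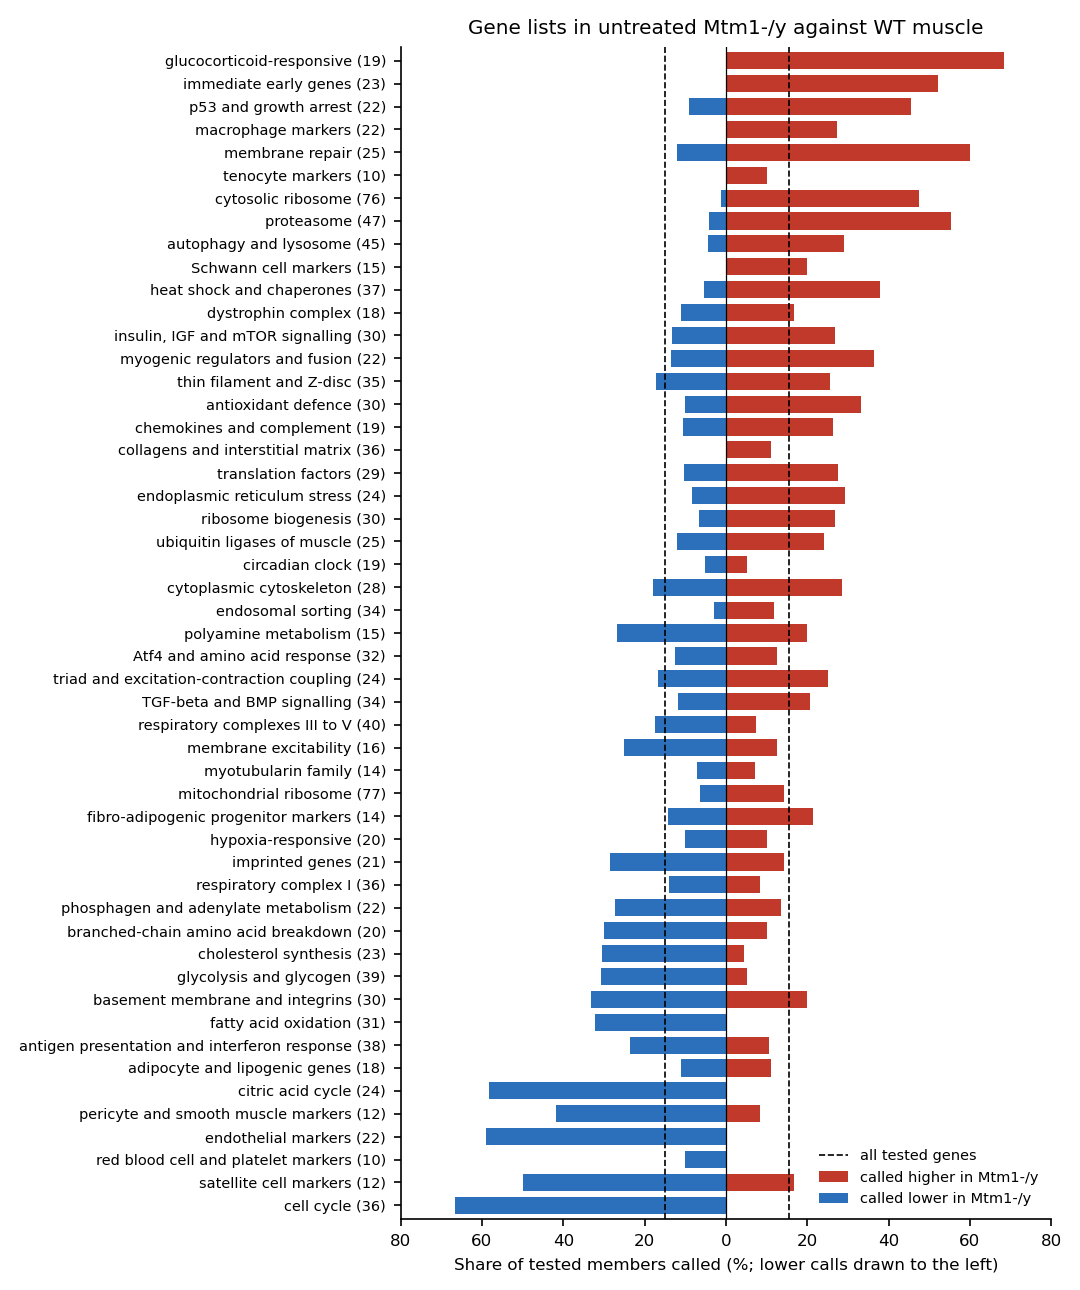
Share of tested members of each gene list (number tested in parentheses, lists of at least 10) called higher (red, right) or lower (blue, left) in untreated Mtm1-/y than in WT muscle, ordered by the median log2 fold change. Dashed lines mark the shares over all tested genes, 15.5% higher and 14.9% lower, and 66.7% of the cell cycle list lies to the left while 68.4% of the glucocorticoid-responsive list lies to the right.

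*Mtm1* (build GRCm38, chromosome X, 71210767 to 71315691, plus strand) had 15.2, 15.3, 14.9 and 15.6 CPM in WT and 3.61, 3.63, 3.27 and 2.91 in Mtm1-/y. The groups did not overlap, the mutant libraries lay close together, and the log2 fold change was -2.19 ± 0.12, adjusted p = 5.46e-08. Of the 13 related phosphatases and pseudophosphatases of the family, only *Mtmr11* was called by edgeR, and the family had 2 lower calls without WT replicate 3. *Mtmr11*, an inactive member, was at 3.79, 5.1, 5.97 and 5.54 CPM in WT and 5.91, 13.7, 6.83 and 13.3 in Mtm1-/y, with mutant replicate 1 inside the WT range, replicate 3 just above it and replicates 2 and 4 far above it (0.97 ± 0.26, adjusted p = 0.0122). *Mtmr2*, a close relative of *Mtm1*, had a log2 fold change of -0.14 ± 0.09, adjusted p = 0.272. For *Mtmr14*, a phosphatase of the same lipids, mutant replicate 1 was at 42.5 CPM and the other 7 libraries at 18.9 to 22.6 CPM, so that its log2 fold change of 0.32 ± 0.20 became -0.01 without that library (adjusted p = 0.249 and 0.962).

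Genes of the endosomal machinery that binds or sorts these lipids were mostly uncalled. In the endosomal sorting list 4 of 34 tested members were called higher and 1 lower (5 higher and 1 lower without mutant replicate 1), the lower count being 0 without mutant replicate 2 and 2 without mutant replicate 3. The median log2 fold change was 0.06, against 0.00 over all tested genes. *Tsg101* and *Chmp4b*, subunits of the complexes that bud vesicles into endosomes, rose by a log2 fold change of 0.46 ± 0.07 (adjusted p = 0.000274) and 0.47 ± 0.08 (adjusted p = 0.00041). *Tsg101* was at 24.1, 23.1, 23.4 and 22.6 CPM in WT and 33.5, 32.9, 31.8 and 30.3 in Mtm1-/y. All 4 mutant libraries exceeded all 4 WT libraries. In the triad and excitation-contraction coupling list 6 of 24 tested members were called higher and 4 lower. The median was 0.01, and its sign changed under 5 of 16 alternatives, upper-quartile scaling among them. *Cacng1*, the gamma subunit of the muscle calcium channel, was at 197, 239, 229 and 222 CPM in WT and 1074, 825, 641 and 871 in Mtm1-/y. The lowest mutant, replicate 3, lay far above the highest WT library, and the log2 fold change was 1.94 ± 0.14, adjusted p = 6.29e-07. *Orai1*, the plasma membrane channel of store-operated calcium entry, rose as well (0.73 ± 0.10, adjusted p = 9.24e-05). *Cacna2d1*, another subunit of the same calcium channel, and *Jph1*, which ties the membranes of the triad together, fell (-0.55 ± 0.15, adjusted p = 0.0126, and -0.39 ± 0.11, adjusted p = 0.0141). The count of lower genes in this list rested on single libraries, with 8 called without mutant replicate 3 and 2 without WT replicate 1. Of the proteins that link the cytoskeleton to the matrix, *Itga7*, the laminin-binding integrin of muscle, rose (0.65 ± 0.11, adjusted p = 0.000429), and *Sntb1*, a syntrophin of the dystrophin complex, fell from 17, 16.4, 17.8 and 17.2 CPM in WT to 4.6, 3.59, 6.23 and 3.79 CPM in Mtm1-/y (-1.91 ± 0.29, adjusted p = 0.000305). The WT libraries were tightly grouped, and no mutant library came near them. In the dystrophin complex list 3 of 18 tested members were called higher and 2 lower, the higher count being 5 without WT replicate 1 and the lower count 1 without WT replicate 1 or 2 or mutant replicate 2 or 3. In the membrane excitability list 2 of 16 tested members were called higher and 4 lower (3 higher and 3 lower without mutant replicate 1), the lower count being 2 without WT or mutant replicate 2.

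The largest increases in protein-coding genes of at least 3 on the log2 CPM scale, the genes left aside excepted, were in *Cilp*, *Mt2*, *Rrad* and 5 other genes. *Cilp* (chromosome 9, 65265180 to 65280605), a secreted protein of cartilage and connective tissue, had 8.49, 8.57, 8.05 and 10.4 CPM in WT and 109.6, 762, 569 and 946 in Mtm1-/y. Every mutant library exceeded every WT library, and replicate 1 was the lowest mutant (6.07 ± 0.69, adjusted p = 6.98e-05). In bulk muscle, more or fewer cells of a type and more or less RNA per cell cannot be told apart. *Mt2* (chromosome 8, 94172664 to 94173568), a metallothionein that binds zinc and copper, was at 5.95, 8.14, 5.4 and 7.04 CPM in WT and 228, 322, 214 and 108 in Mtm1-/y. Replicate 4 was the lowest mutant and was still far above WT (5.04 ± 0.62, adjusted p = 0.000129). *Rrad*, a small GTPase that inhibits voltage-gated calcium channels, was at 0.763, 3.36, 1.37 and 2.76 CPM in WT and 20.1, 83.4, 12.8 and 111 in Mtm1-/y. The mutants split into replicates 1 and 3 at 20.1 CPM or less and replicates 2 and 4 above 80 CPM, all above WT (4.80 ± 0.71, adjusted p = 0.000441). The other increases of similar size were in *Cpne2*, a calcium-dependent phospholipid-binding protein (4.44 ± 0.24), *Tiam2*, an activator of the GTPase Rac (4.38 ± 0.35), *Ahnak2*, a large scaffold protein (4.08 ± 0.36), *Ctxn3*, a small membrane protein (4.00 ± 0.33), and *Serpinb1a*, an intracellular protease inhibitor (3.97 ± 0.35). Their adjusted p-values were 5.46e-08, 3.13e-06, 8.02e-06, 4.27e-06 and 7.02e-06.

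*Actc1* (chromosome 2, 114047282 to 114053548), the cardiac actin that fetal skeletal muscle also expresses, had the largest decrease by the same rule and was at 8602, 3788, 3152 and 4696 CPM in WT and 38.6, 577, 945 and 335 in Mtm1-/y. The groups did not overlap, but both varied widely, with WT replicate 1 the highest and mutant replicate 1 the lowest (-3.42 ± 0.98, adjusted p = 0.0192), and the call was lost without mutant replicate 4 (-3.28, adjusted p = 0.0509) and without the filter on low counts. *Cacna2d4*, an auxiliary subunit of calcium channels, was at 37.5, 38.6, 25.4 and 30.5 CPM in WT and 1.15, 4.84, 4.7 and 4.34 in Mtm1-/y. Replicate 1 was again the lowest, and replicates 2 to 4 were within 4.34 to 4.84 CPM (-3.15 ± 0.49, adjusted p = 0.000519). *Amd1* (chromosome 10, 40287458 to 40302186), S-adenosylmethionine decarboxylase of the polyamine pathway, was at 95.3, 86.1, 79.8 and 62.4 CPM in WT and 3.79, 10.6, 14.3 and 9.68 in Mtm1-/y. No mutant library reached 15 CPM and no WT library was under 60 CPM (-3.08 ± 0.34, adjusted p = 4.11e-05). Reads of *Amd1* may be shared with its near-identical copy Amd2, so the split between them is uncertain. *Ybx2*, a nucleic acid-binding protein known from germ cells (-2.80 ± 0.23), *Mettl21c*, a muscle lysine methyltransferase (-2.69 ± 0.50, and -3.29 without mutant replicate 3), *Nrep*, a protein known from regenerating nerve (-2.51 ± 0.53), *Mmd*, a membrane receptor-like protein (-2.25 ± 0.18), and *Mstn*, the growth inhibitor myostatin (-2.22 ± 0.41), completed this group, with adjusted p of 2.66e-06, 0.0017, 0.00373, 2.15e-06 and 0.00169.

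**Figure D2:**
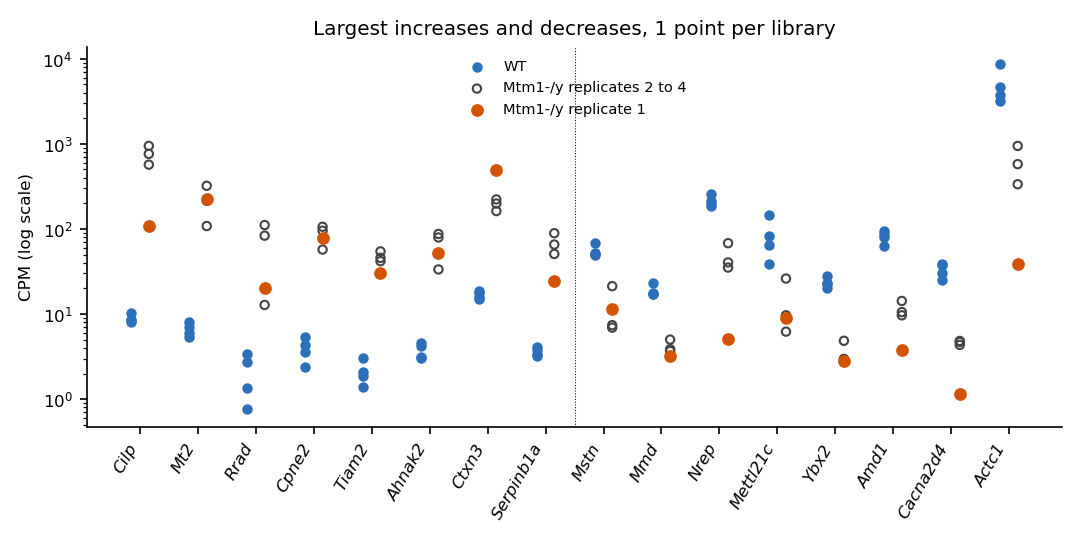
CPM of the 8 largest increases (left of the dotted line) and 8 largest decreases (right) on a log axis, with 1 point per library for WT (blue), Mtm1-/y replicate 1 (orange) and Mtm1-/y replicates 2 to 4 (open). No gene shows overlap between the groups, and replicate 1 is the lowest mutant point for *Cilp*, *Tiam2* and *Serpinb1a* among the increases and the highest for *Ctxn3*.

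By the difference in mean CPM, a relative measure weighted by transcript length as well as by abundance, sarcomere transcripts were among those that lost most. *Tpm1* and *Tnnt3*, which regulate the fast thin filament, were at 22777, 20143, 20413 and 19741 CPM in WT and 8786, 13136, 16592 and 14489 in Mtm1-/y, and at 23346, 21284, 21097 and 19879 CPM in WT and 13515, 14180, 17296 and 15206 in Mtm1-/y. All mutant libraries were below all WT libraries in both, with replicate 3 the nearest to WT (-0.65 ± 0.16, adjusted p = 0.00709, and -0.51 ± 0.11, adjusted p = 0.00299). *Mybpc2*, fast myosin-binding protein C, and titin, the molecular spring of the sarcomere, fell as well (-0.95 ± 0.23, adjusted p = 0.00565, and -0.49 ± 0.13, adjusted p = 0.0113 for *Ttn*). Among nuclear protein-coding genes with no overlap, and leaving aside the genes named at the start, the largest gain was in *Des*, the intermediate filament protein of muscle, at 2881, 3278, 3308 and 3044 CPM in WT and 6873, 7233, 5192 and 7025 in Mtm1-/y. Replicate 3 was the lowest mutant and still exceeded every WT library (1.07 ± 0.12, adjusted p = 3.1e-05). *Hspb7*, a small heat shock protein of heart and muscle, had a mean of 595 ± 243 CPM in WT and 2109 ± 335 in Mtm1-/y (SD, n = 4; 1.83 ± 0.40, adjusted p = 0.0041), and *Actn2*, the Z-disc actinin of all fibre types, rose less (0.83 ± 0.22, adjusted p = 0.0115). *Glul*, glutamine synthetase, was at 95.6, 86.5, 85.7 and 96.4 CPM in WT and 1642, 372, 885 and 226 in Mtm1-/y. Replicate 1 was the highest and replicate 4 the lowest mutant, all above WT (3.10 ± 0.61, adjusted p = 0.00235, and 2.44 without replicate 1). *Pdk4*, which switches off pyruvate dehydrogenase, showed the same order of mutant libraries, at 582, 510.4, 487 and 663 CPM in WT and 2519.8, 1835, 2162 and 764 in Mtm1-/y. Its call (1.70 ± 0.55, adjusted p = 0.0315) was lost when any untreated library other than mutant replicate 4 was left out, with adjusted p of 0.0556 to 0.0839, and without the filter on low counts.

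Several lists of transcriptional stress responses had mostly higher calls. In the immediate early list 12 of 23 tested members were called higher and 0 lower (10 higher and 0 lower without mutant replicate 1), with a median of 0.95. *Junb*, a subunit of the AP-1 transcription factor, was at 3.52, 3.36, 4.03 and 5.81 CPM in WT and 37.6, 34, 18.8 and 35.2 in Mtm1-/y. The mutants were far above the highest WT library, and replicate 3 was the lowest of them (2.91 ± 0.23, adjusted p = 2.66e-06). *Jund*, another AP-1 subunit, rose likewise (2.22 ± 0.22, adjusted p = 8.72e-06). In the p53 and growth arrest list 10 of 22 tested members were called higher and 2 lower (10 higher and 3 lower without mutant replicate 1). *Eda2r*, a death-domain receptor of the tumour necrosis factor family, was at 6.4, 10.3, 10.6 and 10.9 CPM in WT and 126, 154, 120.5 and 179 in Mtm1-/y. No library came between the groups (3.93 ± 0.34, adjusted p = 6.35e-06). *Gadd45a* rose (2.95 ± 0.31, adjusted p = 2.76e-05) and its paralogue *Gadd45b* fell (-2.07 ± 0.31, adjusted p = 0.000314). *Gadd45a* and *Cdkn1a* also belong to the denervation genes that were left aside. In the glucocorticoid-responsive list 13 of 19 tested members were called higher and 0 lower (11 higher and 1 lower without mutant replicate 1), with a median of 1.26. The mean deviation of its members from the WT mean, in log2 units, was 1.92, 0.95, 1.31 and 0.25 in mutant replicates 1 to 4. Replicate 4 was the nearest to the WT libraries (-0.05 to 0.05) and replicate 1 the farthest. Without replicate 1 the median was 0.90. *Cebpb*, a transcription factor of the acute phase, was at 1.94, 1.58, 1.55 and 1.99 CPM in WT and 12, 10.2, 6.99 and 4.08 in Mtm1-/y, with replicate 4 the lowest mutant and all mutants above WT (2.22 ± 0.35, adjusted p = 0.000395). *Cdkn1a*, the cell cycle inhibitor p21, rose in all 4 mutants (3.15 ± 0.45, adjusted p = 0.000302).

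Membrane repair genes had a high share of higher calls. Of 25 tested, 15 (60%) were called higher and 3 lower (17 higher and 3 lower without mutant replicate 1), with a median of 0.59 (0.68 without replicate 1). *Anxa4*, an annexin that binds phospholipids in the presence of calcium, was at 12.5, 16, 16.1 and 14.6 CPM in WT and 76.8, 61.4, 61.4 and 62.6 in Mtm1-/y. Replicate 1 was the highest, and the other 3 mutants were within 61.4 to 62.6 CPM (2.15 ± 0.16, adjusted p = 7.01e-07). *S100a4*, a calcium-binding partner of annexins and myosin, was at 1.18, 1.11, 1.06 and 1.38 CPM in WT and 16.1, 68.3, 26.4 and 52.4 in Mtm1-/y. All mutants were above WT, and replicate 1 was the lowest of them (5.09 ± 0.49, adjusted p = 1.61e-05). The 3 members called lower were the caveolar genes *Cavin2* (-1.37 ± 0.16, adjusted p = 3.1e-05), *Cav1* (-1.01 ± 0.15, adjusted p = 0.000266) and *Ehd2* (-0.88 ± 0.17, adjusted p = 0.0012), which endothelial cells also express. *Ehd2* was named after its values were seen.

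Protein turnover lists had mostly higher calls, with small changes. In the proteasome list 26 of 47 tested members were called higher and 2 lower (31 higher and 2 lower without mutant replicate 1). The median log2 fold change was 0.30. *Psmb1* and *Psmb4*, subunits of the catalytic core, rose (0.66 ± 0.09, adjusted p = 8.75e-05, and 0.84 ± 0.12, adjusted p = 0.000168), and *Psme1*, a subunit of an interferon-inducible regulator of the proteasome, fell from 29.3, 28.3, 32 and 29.2 CPM in WT to 10.9, 17.8, 17.8 and 19.4 CPM in Mtm1-/y (-0.85 ± 0.17, adjusted p = 0.0017). *Psmb1* was at 69.7, 80.8, 82.9 and 81.8 CPM in WT and 128, 131, 106 and 132 in Mtm1-/y, and the groups did not overlap in either gene. In the autophagy and lysosome list 13 of 45 tested members were called higher and 2 lower (15 higher and 2 lower without mutant replicate 1). *Cd63*, a tetraspanin of late endosomes and lysosomes, was at 18.5, 25.1, 27.2 and 25.4 CPM in WT and 59.1, 57.3, 47.2 and 69.3 in Mtm1-/y, with the groups apart (1.28 ± 0.12, adjusted p = 7.02e-06). *Map1lc3a*, a protein of the autophagosome membrane, rose (1.29 ± 0.20, adjusted p = 0.000314), and *Psap*, the precursor of the saposins, fell (-0.72 ± 0.12, adjusted p = 0.000554). Among heat shock genes and chaperones 14 of 37 tested members were called higher and 2 lower (13 higher and 2 lower without mutant replicate 1), the higher count being 8 without WT replicate 4 and the lower count 4 without mutant replicate 3. The small heat shock genes *Hspb1* (1.67 ± 0.16, adjusted p = 6.44e-06) and *Hspb8* (1.55 ± 0.18, adjusted p = 3.1e-05) rose, and *Hspd1*, the mitochondrial chaperonin, fell (-0.51 ± 0.13, adjusted p = 0.00701). *Hspb8* was at 303, 336, 314 and 275 CPM in WT and 598, 1113, 695 and 1179.5 in Mtm1-/y, with replicates 2 and 4 the highest. Among ubiquitin ligases of muscle 6 of 25 tested members were called higher and 3 lower (3 higher and 3 lower without mutant replicate 1). *Fbxo30*, a ligase of muscle atrophy, rose (0.86 ± 0.14, adjusted p = 0.000474).

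Many cytosolic ribosome genes were higher, and most mitochondrial ribosome genes were uncalled. Of 76 cytosolic ribosomal protein genes, 36 (47.4%) were called higher and 1 lower, with a median of 0.39, and 33 were called higher without replicate 1. The mean deviation from WT was 0.63, 0.40, 0.30 and 0.33 in the mutants and -0.16 to 0.13 in WT libraries. *Rplp2*, a protein of the ribosomal stalk, was at 36.4, 22.2, 24 and 23.8 CPM in WT and 55.1, 52.6, 54.5 and 52.6 in Mtm1-/y. The 4 mutants lay within 52.6 to 55.1 CPM, above WT replicate 1 at 36.4 CPM and the other WT libraries (1.01 ± 0.14, adjusted p = 0.000143). *Rps2* (1.52 ± 0.23, adjusted p = 0.000283) rose and *Rpl15* (-0.59 ± 0.09, adjusted p = 0.000381) fell. Many of these genes have processed pseudogenes of nearly the same sequence, so the counts of single members are uncertain. Of 77 mitochondrial ribosomal protein genes, 11 were called higher and 5 lower (14 higher and 2 lower without mutant replicate 1), and the lower count was 12 without mutant replicate 3 and 1 to 3 without any other single library. Among translation factors 8 of 29 tested members were called higher and 3 lower. *Eif6*, which keeps the large ribosomal subunit apart until it matures, rose (0.53 ± 0.09, adjusted p = 0.000404) and *Eif4e*, which binds the messenger cap, fell (-0.57 ± 0.14, adjusted p = 0.00814). The higher count was 5 without WT replicate 2 or 4.

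Lists of fuel oxidation had mostly lower calls, in particular the mitochondrial genome and the citric acid cycle. Of the 12 mitochondrially encoded protein genes on the list 7 were tested, and all 7 were called lower, with log2 fold changes of -0.91 to -0.67. The other 5 had at most 2 counts in any of the 8 libraries, and *mt-Atp8* was not analysed here. The transcripts of the mitochondrial genome that received counts together made up 7.75% to 8.16% of counts in WT and 4.80% to 6.02% in mutant libraries. These shares hold almost no reads of the 5 untested genes, and why those had so few counts was not tested. *mt-Nd4*, a subunit of respiratory complex I, was at 9613, 9730.3, 9124 and 9149.7 CPM in WT and 5012, 5008, 6318 and 5053 in Mtm1-/y. Replicate 3 was the highest mutant and remained below WT (-0.81 ± 0.15, adjusted p = 0.00103). In the citric acid cycle list 0 of 24 tested members were called higher and 14 lower (0 higher and 12 lower without mutant replicate 1), with a median of -0.44. *Pdha1*, a subunit of pyruvate dehydrogenase, and *Suclg1*, a subunit of succinate-CoA ligase, were at 1033, 1094, 1025 and 1027 CPM in WT and 481, 580.1, 738 and 600.3 in Mtm1-/y, and at 377, 354, 378 and 349 CPM in WT and 167, 201, 256 and 199 in Mtm1-/y. In both genes replicate 1 was the lowest and replicate 3 the highest mutant, with no overlap (-0.80 ± 0.13, adjusted p = 0.000476, and -0.83 ± 0.14, adjusted p = 0.000694). The mean deviation of the list was -0.53, -0.53, -0.17 and -0.50, so replicate 3 was the least changed, and its count of lower genes was 7 without mutant replicate 2 or 4 and 9 without WT replicate 2.

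Fatty acid oxidation and sugar breakdown had smaller shares of lower calls. In the fatty acid oxidation list 0 of 31 tested members were called higher and 10 lower (0 higher and 12 lower without mutant replicate 1), with 6 lower without WT replicate 2, 3 or 4 and 1 or 2 higher without mutant replicate 3 or 4. *Eci1* and *Acadm*, enzymes of the mitochondrial beta-oxidation spiral, fell (-0.64 ± 0.13, adjusted p = 0.00177, and -0.54 ± 0.12, adjusted p = 0.00297). Mean deviations were -0.01, -0.39, -0.19 and -0.43, so the list as a whole was near WT in replicate 1. In the glycolysis and glycogen list 2 of 39 tested members were called higher and 12 lower (0 higher and 10 lower without mutant replicate 1). The higher count was also 0 without WT replicate 1, 2 or 4 or mutant replicate 2, and 1 without WT or mutant replicate 3. *Slc2a3*, a glucose transporter, was at 11.5, 11.4, 9.52 and 8.24 CPM in WT and 1.26, 1.17, 1.75 and 1.32 in Mtm1-/y, with no mutant library above 1.75 CPM (-2.88 ± 0.33, adjusted p = 2.76e-05). *Fbp2*, the muscle fructose-bisphosphatase, fell (-1.34 ± 0.28, adjusted p = 0.0029). The nuclear subunits of the respiratory chain did not move as a block. In complex I 3 of 36 tested members were called higher and 5 lower (3 higher and 4 lower without mutant replicate 1), and in complexes III to V 3 of 40 tested members were called higher and 7 lower (4 higher and 5 lower without mutant replicate 1). *Ndufs1*, the largest complex I subunit, fell (-0.70 ± 0.18, adjusted p = 0.00855), as did *Cycs*, cytochrome c (-1.15 ± 0.21, adjusted p = 0.00122), while *Cox8a*, a small subunit of complex IV, rose (0.89 ± 0.18, adjusted p = 0.00176). *Cycs* was at 30.1, 26.9, 24.4 and 25.6 CPM in WT and 8.21, 10.9, 18.6 and 10.6 in Mtm1-/y. Replicate 3 was the nearest to WT and did not overlap it. In complex I the lower count was 3 without WT replicate 2, 3 or 4 or mutant replicate 4, and the higher count 0 without WT or mutant replicate 2.

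**Figure D3:**
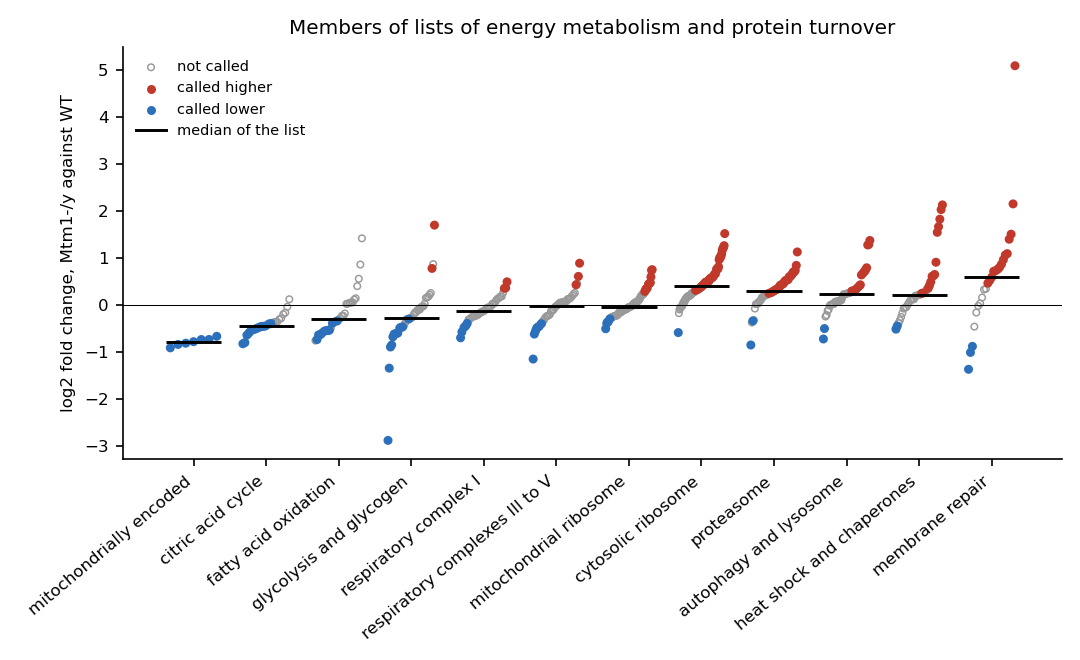
Log2 fold change of every tested member of 12 lists, with members called higher in red, called lower in blue, uncalled members open, and a black line at the median of each list. All 7 points of the mitochondrially encoded list are blue, and the cytosolic ribosome and proteasome lists lie mostly above 0 with small changes.

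Among smaller metabolic groups, phosphagen and adenylate genes included large changes of both signs, and 3 of 22 tested members were called higher and 6 lower. *Ampd3*, an isoform of AMP deaminase, was at 7.08, 8.81, 8.94 and 9.62 CPM in WT and 83.9, 34.8, 17.2 and 32 in Mtm1-/y. Replicate 1 was far above the other mutants, and the log2 fold change was 2.29 ± 0.37, adjusted p = 0.000637 (1.70 without replicate 1). *Prkab2*, a regulatory subunit of the AMP-activated kinase of muscle, and *Ak3*, the adenylate kinase of the mitochondrial matrix, fell (-1.31 ± 0.17, adjusted p = 9.24e-05, and -0.99 ± 0.11, adjusted p = 2.87e-05). *Prkab2* was at 628, 553, 499 and 552 CPM in WT and 151, 247, 269.6 and 236 in Mtm1-/y, with no overlap. In polyamine metabolism *Amd1* fell, as given among the largest decreases, and *Sat1*, which acetylates polyamines for breakdown or export, and *Oaz1*, which targets ornithine decarboxylase for degradation, rose (0.84 ± 0.12, adjusted p = 0.000161, and 0.65 ± 0.10, adjusted p = 0.000243), and 3 of 15 tested members were called higher and 4 lower (4 higher and 5 lower without mutant replicate 1) in all. In cholesterol synthesis 1 of 23 tested members were called higher and 7 lower (1 higher and 9 lower without mutant replicate 1), with *Sc5d* (-0.72 ± 0.11, adjusted p = 0.000331) and *Dhcr7* (-0.76 ± 0.15, adjusted p = 0.00194), enzymes of the last steps, among the lower. Among genes of branched-chain amino acid breakdown 2 of 20 tested members were called higher and 6 lower. In antioxidant defence 10 of 30 tested members were called higher and 3 lower, the lower count being 1 without WT replicate 2 or 4. *Gpx1* and *Gpx4*, glutathione peroxidases, rose (1.23 ± 0.12, adjusted p = 7.2e-06, and 0.81 ± 0.08, adjusted p = 5.78e-06), and *Sod2*, the superoxide dismutase of mitochondria, fell (-0.74 ± 0.14, adjusted p = 0.00106). *Gpx4* was at 29.3, 30.5, 31.3 and 32.5 CPM in WT and 51.4, 60.2, 51.4 and 54.2 in Mtm1-/y, and the mutants were all above WT and within 51.4 to 60.2 CPM.

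Among lists of at least 10 tested genes, the cell cycle list had the largest share of lower calls. Of 36 tested, 24 (66.7%) were called lower and 0 higher by edgeR's quasi-likelihood test (median -1.26), and without replicate 1 these were 20 and 0. No member was called higher under any of the 16 alternatives, and the lower count was 17 to 25. *Ccnd2*, a cyclin of the G1 phase, was at 17.8, 16, 18.1 and 20.1 CPM in WT and 3.69, 6.74, 5.24 and 8 in Mtm1-/y. The groups were apart, and replicate 1 was the lowest (-1.61 ± 0.21, adjusted p = 6.98e-05). The lowest log2 fold changes of the list were those of *Mki67*, the proliferation antigen Ki-67 (-3.82 ± 0.82, adjusted p = 0.00393), *Cenpf*, a kinetochore protein of mitosis (-3.63 ± 0.80, adjusted p = 0.00363), and *Top2a*, the topoisomerase of dividing cells (-3.6 ± 0.80, adjusted p = 0.00465), which were named after their values were seen. Without mutant replicate 2 the log2 fold change was -4.52 for *Mki67* and -4.71 for *Cenpf*. *Mki67* was at 2.53, 3.71, 8.5 and 8.6 CPM in WT and 0.0262, 1.01, 0.286 and 0.426 in Mtm1-/y, levels far under those of the structural genes above. All mutant libraries were under all WT libraries.

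The promoters of these 3 genes are shown because promoters of mitotic genes commonly hold several CCAAT boxes, the site of the factor NF-Y, in a row. Each run covers 250 bases before to 50 after the start in RefSeq (GRCm38.p6), 5′ to 3′ on the strand of the gene, with each CCAAT or its reverse complement ATTGG in capitals.
Mki67 (chr7:135716330-135716629, minus strand): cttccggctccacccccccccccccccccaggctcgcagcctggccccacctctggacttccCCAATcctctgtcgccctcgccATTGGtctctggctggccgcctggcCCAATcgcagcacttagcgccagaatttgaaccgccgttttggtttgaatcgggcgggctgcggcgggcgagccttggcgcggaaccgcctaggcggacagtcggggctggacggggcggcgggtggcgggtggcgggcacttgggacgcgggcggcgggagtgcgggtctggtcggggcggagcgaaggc
Cenpf (chr1:189688037-189688336, minus strand): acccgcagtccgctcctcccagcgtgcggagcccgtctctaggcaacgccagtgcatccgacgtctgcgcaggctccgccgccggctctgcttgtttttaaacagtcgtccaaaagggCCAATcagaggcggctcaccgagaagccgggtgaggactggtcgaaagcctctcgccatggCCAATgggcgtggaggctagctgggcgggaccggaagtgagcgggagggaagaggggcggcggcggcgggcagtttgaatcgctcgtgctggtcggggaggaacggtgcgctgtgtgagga
Top2a (chr11:99024140-99024439, minus strand): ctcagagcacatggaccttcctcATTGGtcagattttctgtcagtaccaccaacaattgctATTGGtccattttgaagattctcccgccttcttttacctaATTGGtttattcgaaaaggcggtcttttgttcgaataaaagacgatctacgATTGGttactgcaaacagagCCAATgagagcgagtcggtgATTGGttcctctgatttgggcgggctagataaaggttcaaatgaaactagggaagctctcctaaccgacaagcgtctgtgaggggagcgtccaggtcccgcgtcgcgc
The *Mki67* promoter held 3 matches, that of *Cenpf* 2 and that of *Top2a* 6. Of 14277 promoters of 11126 tested genes, 37.1% held at least 1 match on either strand and 13.3% at least 2. Among the 17 promoters found for cell cycle genes called lower, 13 held at least 1 (76.5%) and 10 at least 2 (58.8%), and among the 13 promoters of uncalled cell cycle genes, 9 and 2. The count of at least 2 was added after the values were seen. Over all genes the share with at least 1 CCAAT was 36% of promoters of genes called higher and 36.3% of those called lower.

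The same search was made for 6 other motifs, on both strands, with no test of the shares for genes called higher, called lower and all tested genes, given in this order. TGANTCA, the AP-1 site, was in 6.12%, 5.25% and 5.34% of promoters, and TGACGTCA, the cyclic AMP response element, in 3.18%, 3.03% and 2.79%. CAGCTG, an E-box of myogenic factors, was in 17.6%, 15.7% and 16.1%. TATAAA, the TATA box, was in 8.72%, 8.28% and 7.80%. TGATGCAA, the composite of C/EBP and ATF factors, was in 0.413%, 0.588% and 0.581%. The heat shock element, 3 inverted repeats of a short unit, was in 0.579%, 0.407% and 0.525%, and its share among genes called lower was 0.0926% without mutant replicate 1. None of these motifs contains another, and a match is a description of the letters in the window.

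Markers of satellite cells and of vessels were mostly lower. Satellite cells are the stem cells of muscle, and of 12 markers 2 were called higher and 6 lower (2 higher and 9 lower without mutant replicate 1). *Pax7*, which defines them, was at 5.31, 7.39, 5.89 and 6.92 CPM in WT and 1.33, 0.887, 1.4 and 1.05 in Mtm1-/y. All mutant libraries were at 1.4 CPM or less and all WT libraries above 5 CPM (-2.44 ± 0.22, adjusted p = 3.63e-06), and *Calcr*, a receptor of quiescent satellite cells, was at 0.738, 1.34, 0.929 and 1.23 CPM in WT and 0.0785, 0, 0.159 and 0 in Mtm1-/y. The 2 markers called higher were *Des* and *Sdc4* (1.58 ± 0.27, adjusted p = 0.00075), which fibres or other cells also express. In the list of myogenic regulators and fusion genes 8 of 22 tested members were called higher and 3 lower (6 higher and 4 lower without mutant replicate 1). *Myf6*, the myogenic factor of mature fibres, was at 66.7, 70.1, 73.4 and 77.7 CPM in WT and 214, 171, 213 and 159 in Mtm1-/y, all mutants above WT (1.4 ± 0.12, adjusted p = 3.13e-06). *Cdon* and *Jam2*, receptors of myoblast adhesion, fell (-1.18 ± 0.10, adjusted p = 2.72e-06, and -0.94 ± 0.10, adjusted p = 1.39e-05).

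Of 22 endothelial markers, 13 (59.1%) were called lower and 0 higher, and 16 were lower without replicate 1. *Mmrn2*, an endothelial matrix protein, was at 35.1, 39.7, 35.8 and 42.5 CPM in WT and 18.8, 18.6, 17.5 and 18.9 in Mtm1-/y. The mutants lay within 17.5 to 18.9 CPM, under every WT library (-1.05 ± 0.14, adjusted p = 9.07e-05). *Erg*, an endothelial transcription factor, fell too (-1.02 ± 0.15, adjusted p = 0.000183). The summed level of the list was 1749.9 to 2068 CPM in WT and 999 to 1438 in Mtm1-/y. Among pericyte and smooth muscle markers 1 of 12 tested members were called higher and 5 lower, with *Mcam* (-1.01 ± 0.18, adjusted p = 0.000859) and *Notch3* (-0.81 ± 0.14, adjusted p = 0.000714) lower and the proteoglycan gene *Cspg4* higher (0.85 ± 0.23, adjusted p = 0.0116). Beside them, of 30 genes of the basement membrane and its integrins, 6 were called higher and 10 lower (5 higher and 9 lower without mutant replicate 1). *Itga1* and *Itga6*, integrins of capillaries among other cells, fell (-1.07 ± 0.16, adjusted p = 0.000231, and -1.4 ± 0.20, adjusted p = 0.000221), and *Itga9* rose (1.59 ± 0.20, adjusted p = 6.98e-05). The higher count was 3 without WT replicate 3. The part of a changed vessel content in these results was not tested.

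Connective tissue and macrophage lists differed widely between mutant libraries. Of 36 genes of collagens and the interstitial matrix, 4 were called higher and 0 lower by edgeR, and the higher count was 2 when any of 6 single libraries was left out, namely any WT library or mutant replicate 1 or 4. The lower count was 1 without mutant replicate 1, 2 or 4. Mean deviations from WT were -1.12, 0.49, -0.24 and 0.63. Replicate 1 lay far below the WT libraries (-0.16 to 0.16), replicates 2 and 4 above them and replicate 3 just under them. *Timp1*, an inhibitor of matrix metalloproteinases, was at 1.3, 1.7, 1.11 and 0.88 CPM in WT and 2.8, 12.5, 4.13 and 15.4 in Mtm1-/y, with replicates 2 and 4 high and all mutants above WT (2.81 ± 0.56, adjusted p = 0.00242). *Ccn1*, a matricellular growth regulator, rose (1.78 ± 0.29, adjusted p = 0.000597). Tenocyte markers, which mark tendon, had mean deviations of -2.25, 0.22, -0.74 and 1.72, and their summed level was 101 to 126 CPM in WT and 26.5 to 388 in Mtm1-/y. Of 10 tested, only *Scx*, which defines tendon cells, was called (2.5 ± 0.37, adjusted p = 0.000285), and the log2 fold changes ran from -1.01 to 2.5. Their median of 0.40 was -0.39 with limma-voom, -0.26 with the replicate block and -0.62 without mutant replicate 4. Fibro-adipogenic progenitor markers had mean deviations of -0.81, 0.36, -0.17 and 0.33, and 3 of 14 tested members were called higher and 2 lower (3 higher and 1 lower without mutant replicate 1), with a median of -0.05 (0.20 without mutant replicate 1). *Pdgfra*, which defines them, rose (0.76 ± 0.20, adjusted p = 0.0096), and the surface antigens *Cd34* (-0.93 ± 0.26, adjusted p = 0.0151) and *Dpp4* (-0.96 ± 0.30, adjusted p = 0.0259) fell. The call of *Dpp4* was lost without mutant replicate 1 (-0.90, adjusted p = 0.0543), WT replicate 4 or mutant replicate 3. The order of mutant libraries was the same in the 3 lists for the lowest, replicate 1, and for the next, replicate 3. Whether tendon or connective tissue was carried along to differing amounts during dissection was not tested.

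Macrophage markers had 6 of 22 members called higher and 0 lower (7 higher and 0 lower without mutant replicate 1), with mean deviations of -0.23, 1.27, -0.07 and 1.15 and WT libraries at -0.40 to 0.29. Replicates 2 and 4 were above the WT range and replicates 1 and 3 within it, and the higher count was 3 without WT replicate 1. The summed level was 37.9 to 66.5 CPM in WT and 60.8 to 130.0 in Mtm1-/y. *Lgals3*, galectin-3, was at 3.62, 3.24, 3.5 and 2.55 CPM in WT and 34.6, 17.4, 16.6 and 16.1 in Mtm1-/y, and here replicate 1 was the highest (2.72 ± 0.27, adjusted p = 1.04e-05). *Tyrobp*, a signalling adaptor of myeloid cells, was at 0.59, 0.514, 0.575 and 0.88 CPM in WT and 0.942, 1.81, 0.794 and 2.75 in Mtm1-/y, with overlap between the groups (1.29 ± 0.34, adjusted p = 0.0105, and 0.85 without mutant replicate 4). Of 38 genes of antigen presentation and the interferon response, 4 were called higher and 9 lower (5 higher and 8 lower without mutant replicate 1). The median of this list was -0.34, and -0.13 without mutant replicate 1. Its mean deviations were -1.04, 0.05, -0.25 and -0.04, with WT libraries at -0.25 to 0.23. The members called higher were the class II histocompatibility genes *H2-Ab1* (1.75 ± 0.47, adjusted p = 0.0128), *H2-Aa* (1.61 ± 0.47, adjusted p = 0.0203) and *H2-Eb1* (1.51 ± 0.45, adjusted p = 0.0216) and their invariant chain *Cd74* (1.37 ± 0.43, adjusted p = 0.0295), the latter both named after their values were seen. *H2-Ab1* was at 4.16, 3.6, 8.36 and 8.16 CPM in WT and 7.17, 38.6, 11.1 and 25.1 in Mtm1-/y, with replicates 2, 3 and 4 above every WT library, replicate 3 the least, and replicate 1 inside the WT range. In the other class II genes replicates 2 and 4 were well above WT as well. The higher count was 1 (*H2-Ab1*) without WT replicate 1 or 2 or mutant replicate 2, and 2 without mutant replicate 4. The members called lower were interferon-stimulated genes such as *Gbp7*, a guanylate-binding protein at 13.5, 7.86, 9.47 and 8.77 CPM in WT and 1.2, 2.5, 3.88 and 2.87 in Mtm1-/y (-1.93 ± 0.31, adjusted p = 0.000425), and *Parp14*, a mono-ADP-ribosyltransferase (-0.91 ± 0.14, adjusted p = 0.000243), both with no overlap. *Cxcl10*, a chemokine that interferon also induces, rose from 0.0984, 0.198, 0.0443 and 0.088 CPM in WT to 1.02, 2.38, 1.05 and 1.61 CPM in Mtm1-/y (3.77 ± 0.46, adjusted p = 5.12e-05). *Trp63* and *Dsp*, listed as keratinocyte markers, rose. *Trp63*, a p53-related transcription factor, was at 4.97, 3.79, 6.28 and 6.57 CPM in WT and 33.7, 38.7, 33.7 and 28.4 in Mtm1-/y (2.64 ± 0.23, adjusted p = 3.63e-06), and *Dsp*, desmoplakin of cell junctions, at 0.0246, 0, 0 and 0 CPM in WT and 0.915, 1.25, 1.27 and 0.694 in Mtm1-/y. In neither gene did the groups overlap. Of the other keratinocyte markers, Krt10 and Sfn were tested and not called, and without mutant replicate 1 the higher count was 3.

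The Atf4, circadian clock and hypoxia lists had shares of calls under the 30.4% over all genes. In the Atf4 and amino acid response list 4 of 32 tested members were called higher and 4 lower. In the circadian clock list 2 of 19 were called, a count that was 0 without WT replicate 1 or 3 or mutant replicate 1, 1 without WT replicate 2 or 4 or mutant replicate 2, and 3 without mutant replicate 3 or 4. In the hypoxia-responsive list 4 of 20 were called, with 2 called without WT replicate 1 or 2, 5 without mutant replicate 1 and 7 without mutant replicate 3. *Egln3*, a prolyl hydroxylase induced by hypoxia, was one of them, at 20, 24.1, 28.2 and 29 CPM in WT and 262, 113, 127 and 109 in Mtm1-/y. Replicate 1 was the highest, and all mutants were far above WT (2.59 ± 0.27, adjusted p = 2.57e-05). The endoplasmic reticulum stress list had more higher calls than the background, with 7 of 24 tested members (29.2%) called higher and 2 lower. The lower count was 1 without WT replicate 1 or 4 or mutant replicate 1 and 0 without WT replicate 2 or 3 or mutant replicate 2. *Xbp1*, a transcription factor of the unfolded protein response, rose (0.77 ± 0.15, adjusted p = 0.00143).

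Of 34 genes of TGF-beta and BMP signalling, 7 were called higher and 4 lower. *Fst*, follistatin, an extracellular antagonist of myostatin and activins, was at 1.3, 1.9, 2.04 and 1.94 CPM in WT and 14.9, 11.8, 8.07 and 11.6 in Mtm1-/y, all mutants far above WT (2.70 ± 0.27, adjusted p = 9.58e-06), and *Ltbp1*, which tethers latent TGF-beta to the matrix, rose (1.77 ± 0.18, adjusted p = 1.24e-05). Without replicate 1 this list had 10 higher and 7 lower, and without WT replicate 2 or 4 it had 2 lower.

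Among thin filament and Z-disc genes 9 of 35 tested members were called higher and 6 lower (8 higher and 5 lower without mutant replicate 1), the lower count being 3 without mutant replicate 4. *Xirp1*, an actin-binding protein of muscle repair sites, was at 181, 258, 197 and 125 CPM in WT and 653, 672, 609.7 and 736 in Mtm1-/y, and the groups did not overlap (1.81 ± 0.28, adjusted p = 0.000403). *Pdlim3*, a Z-disc adaptor, rose (1.07 ± 0.17, adjusted p = 0.00043). In the cytoplasmic cytoskeleton list 8 of 28 tested members were called higher and 5 lower (10 higher and 4 lower without mutant replicate 1), with 5 higher without WT replicate 3 or mutant replicate 4 and 3 lower without WT replicate 4. *Sync*, which binds desmin, rose (0.95 ± 0.12, adjusted p = 4.46e-05), and *Actg1*, cytoplasmic gamma actin, fell (-0.76 ± 0.14, adjusted p = 0.00132). In the insulin, IGF and mTOR signalling list 8 of 30 tested members were called higher and 4 lower (6 higher and 4 lower without mutant replicate 1), and the median of 0.18 became -0.03 without mutant replicate 1. The lower count was 1 or 2 without any other single library. *Akt2*, a kinase downstream of the insulin receptor, rose (0.76 ± 0.09, adjusted p = 4.18e-05), and *Foxo4*, a transcription factor that insulin signalling restrains, fell (-0.39 ± 0.12, adjusted p = 0.0216), a call lost without WT or mutant replicate 2 or 4. *Igfbp2*, which binds insulin-like growth factors, was at 0.0738, 0, 0.133 and 0 CPM in WT and 17.8, 3.02, 2.16 and 1.3 in Mtm1-/y. Replicate 1 was far above the other mutants (6.85 ± 1.23, adjusted p = 0.00131), with a log2 fold change of 5.33 without it and 7.51 without WT replicate 3. Among 21 imprinted genes 3 were called higher and 6 lower (2 higher and 4 lower without mutant replicate 1), of which the non-coding *H19* rose (1.04 ± 0.18, adjusted p = 0.000637) and *Snrpn*, a splicing factor gene, fell (-1.36 ± 0.21, adjusted p = 0.000363). The higher count was 1 without WT replicate 3 or 4. Of 19 chemokine and complement genes 5 were called higher and 2 lower, with *Cx3cl1*, a membrane-bound chemokine, among the higher (2.76 ± 0.58, adjusted p = 0.00343) and the chemokine genes *Cxcl12* (-0.81 ± 0.24, adjusted p = 0.0216) and *Cxcl14* (-0.63 ± 0.17, adjusted p = 0.0131) the lower, the call of *Cxcl12* being lost without WT replicate 2 or mutant replicate 3. Of markers of other cell types, 1 of 10 of red blood cells and platelets was called lower, 3 of 15 of Schwann cells higher (2 without mutant replicate 1), and 4 of 18 adipocyte and lipogenic genes, 2 in each direction (2 in all without any WT library or mutant replicate 1). Of 3 tested neutrophil markers 1 was called higher (0 without any WT library or mutant replicate 1).

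Of 5 tested B cell and immunoglobulin markers 1 was called lower. *Ighm*, the constant region of the immunoglobulin mu heavy chain, was at 53.1, 71.6, 52.4 and 65.4 CPM in WT and 0.183, 2.46, 0.89 and 3.85 in Mtm1-/y. Every mutant library was far under every WT library, and replicate 1 was the lowest (-5.02 ± 0.66, adjusted p = 0.000192). The log2 fold change between the tamoxifen-treated groups was -0.84 (adjusted p = 0.421), and the difference between these comparisons was not tested. The other 4 tested markers were under 2 CPM in all 8 libraries and were not called, with log2 fold changes of -1.16 to -0.68.

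**Figure D4:**
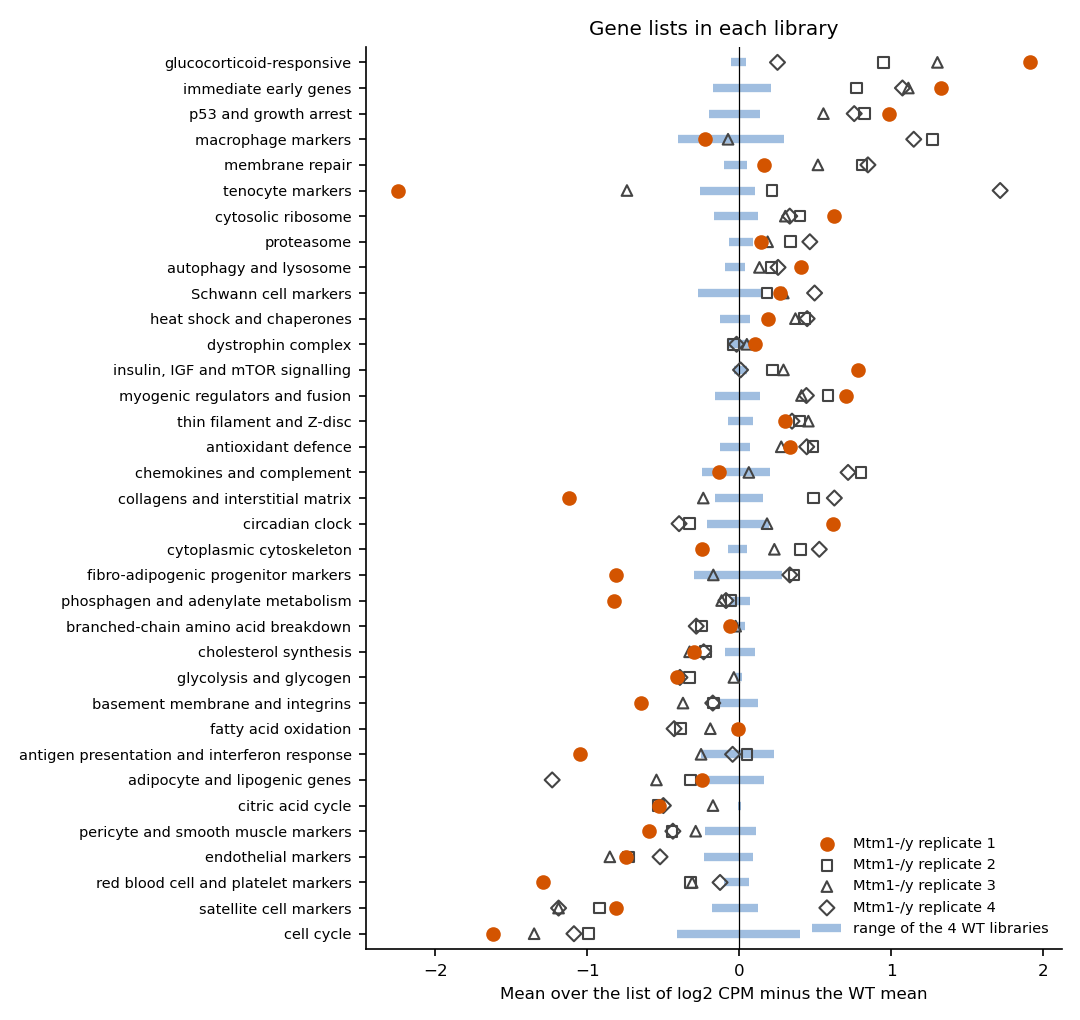
Mean over each gene list of log2 CPM minus the WT mean, for Mtm1-/y replicate 1 (filled orange circle), Mtm1-/y replicates 2 to 4 (open symbols) and the range of the 4 WT libraries (blue band). Replicate 1 is the farthest to the left in the tenocyte (-2.25), collagen (-1.12), interferon (-1.04) and phosphagen (-0.82) lists and the farthest to the right in the glucocorticoid-responsive list (1.92).

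Leaving out mutant replicate 1 kept 3921 of the 4727 calls (82.9%), all with the same sign, lost 806 (17.1%) and added 616. Leaving out another library lost 515 to 1112 calls, so the loss without replicate 1 lay within the range of the others, whereas the gain of 616 was the highest, the next being 535 without mutant replicate 3. It moved the size of the effect more often, with log2 fold changes shifted by over 0.5 in 399 genes, against 46 to 149 genes for the other libraries. No called gene changed sign without any of the 8 libraries. When the fit held the untreated libraries alone, an alternative chosen after seeing the data, 192 of 4088 calls were lost and the number called rose to 5026 without replicate 1. Replicate 1 was the most extreme mutant library in the called direction in 48.6% of called genes, replicate 2 in 28.2%, replicate 4 in 13.9% and replicate 3 in 9.24%, and replicate 3 was the least changed in 42.3%. The median deviation from WT over genes called higher was 0.74, 0.74, 0.51 and 0.65, and over genes called lower -0.87, -0.71, -0.60 and -0.63, in replicates 1 to 4. These genes were called with replicates 1 to 4 in the fit, so each library helped to choose them. The shares and medians are thus a description only.

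**Figure D5:**
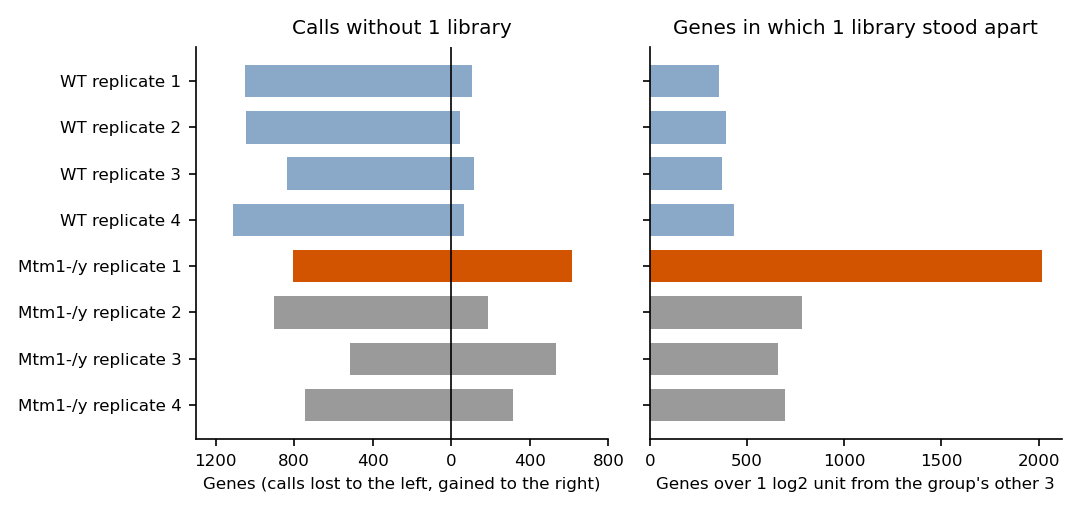
Left, calls lost (to the left of 0) and gained (to the right) when 1 untreated library was left out of the fit. Right, the number of genes in which a library lay over 1 log2 unit from the mean of the other 3 libraries of its group. Mtm1-/y replicate 1 (orange) loses 806 and gains 616 calls and stands apart in 2019 genes.

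The genes whose call rested on replicate 1 most clearly, by the distance of that library from the other mutants, were *Malt1*, *Fibin*, *Spsb1*, *Map3k6*, *Cyp4f39* and *Igf1*. *Malt1*, a protease of NF-kappaB signalling, was at 7.77, 7.35, 7.3 and 6.86 CPM in WT and 87.5, 12.3, 18.3 and 6.05 in Mtm1-/y. Replicate 1 was far above every other library and replicate 4 was under the WT range (2.09 ± 0.64, adjusted p = 0.0262, and 0.73, adjusted p = 0.0777 without it). *Fibin*, a secreted fin bud initiation factor, was at 12.8, 12.1, 11.6 and 10 CPM in WT and 219.8, 28.6, 55.8 and 20 in Mtm1-/y, again with replicate 1 far above the rest (2.80 ± 0.81, adjusted p = 0.0205, and 1.58, adjusted p = 0.0988 without it). *Spsb1*, a substrate receptor of ubiquitin ligases, and *Map3k6*, a stress-activated kinase, were high in replicate 1 in the same way (1.86 ± 0.62, and 2.31 ± 0.68, which became 0.80 and 1.47 without it). *Igf1*, the growth factor, was at 28.2, 19, 22.6 and 15.7 CPM in WT and 2.54, 11.1, 9.82 and 9.25 in Mtm1-/y. Replicate 1 was the lowest, and all mutants were under all WT libraries (-1.39 ± 0.47, adjusted p = 0.0378, and -1.09, adjusted p = 0.067 without it). *Cyp4f39*, a fatty acid hydroxylase, was at 30, 21.1, 18.7 and 21.7 CPM in WT and 1.07, 4.32, 5.62 and 4.59 in Mtm1-/y, with no overlap and a loss of the call without replicate 1 (-2.56 ± 0.79, adjusted p = 0.0271, and -2.24, adjusted p = 0.073). Other libraries also decided these calls, since that of each gene was lost without 1 to 5 further libraries, WT replicate 4 for *Fibin* and WT replicate 3 or 4 for *Map3k6* among them. Without the filter on low counts none of the 6 was called. Of lists with at least 8 calls, the imprinted genes lost 5 of 9 calls without replicate 1, ribosome biogenesis 5 of 10, glycolysis and glycogen 5 of 14, insulin, IGF and mTOR signalling 4 of 12 and ubiquitin ligases 3 of 9. The most calls lost without another single library were 3, 5, 6, 5 and 3 in these lists, so that replicate 1 cost more than any other library in the imprinted list only among these 5. No call was lost in the membrane repair, proteasome, autophagy and lysosome, p53 and growth arrest, TGF-beta and BMP, endothelial or satellite cell lists, where another library cost 0 to 4. The ribosome biogenesis list had 8 higher and 2 lower calls in all, with 4 higher and 1 lower without mutant replicate 1 and 4 higher also without WT replicate 2, 3 or 4.

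The tamoxifen-treated mice give a comparison that shares no library with the untreated groups. There, 3121 of 15533 genes (20.1%) were called between Mtm1-/y + TAM and WT + TAM. In these groups the cell cycle list had 2 higher and 1 lower calls, the glucocorticoid-responsive list 1 and 2, and the immediate early list 3 and 1. Their medians were -0.05, -0.44 and 0.13. The citric acid cycle list had 0 and 3 calls, the cytosolic ribosome list 14 and 0, and the proteasome list 25 and 0. Membrane repair had 15 and 3, and endothelial markers 0 and 14. The difference of these counts from those in untreated muscle was not tested. Of the 3921 genes called in untreated muscle with and without replicate 1, 2037 (52.0%) were called in the same direction under tamoxifen and 0 in the opposite one. Of the 806 genes called only with replicate 1, 105 (13.0%) were called in the same direction and 1 in the opposite, and of the 616 called only without it 189 (30.7%) and 0. Over all tested genes 3013 (19.4%) were called there in the direction of their untreated fold change. The sign alone, called or not, was the same in 94.8% of genes called with and without replicate 1. It was the same in 80.6% of those called only with replicate 1 and 94.8% of those called only without it. Over all tested genes this share was 73.4%. The drug was given to these mice, and the fit shared 1 estimate of dispersion over all 15 libraries. The groups of genes also differed in effect size. The median absolute log2 fold change was 0.73 in genes called with and without replicate 1 and 0.58 in those called only with it. It was 0.45 in those called only without it, from the fit without that library. The shares therefore describe the groups of genes and were not tested against each other.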

How the data were processed

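Total RNA of tibialis anterior was sequenced from poly(A)-selected, stranded libraries. The authors deposited 1 table of raw read counts per gene for 30672 genes in 15 libraries. Per the labels, HTSeq 0.6.1p1, STAR 2.5.3a, Bowtie2 2.2.8 and cutadapt 1.10 and the build mm10/GRCm38 stand in the submitters' processing notes. Their roles and the strand setting were not stated in the sources used here, so antisense and overlapping genes may share reads. Gene positions and types were taken from GENCODE M21 (GRCm38).

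Counts were analysed in R 4.3.3 with edgeR 4.0.16 (TMM factors, filterByExpr with a minimum count of 10, a robust quasi-likelihood fit of 4 group means over 15 libraries with 11 residual degrees of freedom). Untreated Mtm1-/y was tested against untreated WT, and p-values were adjusted by Benjamini-Hochberg over 15533 genes. CPM carry TMM factors, and log2 CPM a prior count of 2. The fit was tested on simulated data. Groups follow the labels. Members of the comparison, the 58 gene lists and the rule for named genes were chosen with earlier results of these data known.

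Named genes were the 8 genes with the largest increase and the 8 with the largest decrease (log2 scale) of those called and protein-coding (mean log2 CPM of at least 3, no overlap between groups, called also without mutant replicate 1, not left aside), the 6 largest gains and 6 largest losses in mean CPM among called nuclear protein-coding genes without overlap, up to 2 called members per list and direction by lowest adjusted p, defining markers of cell types, the 6 genes whose call was lost without mutant replicate 1 that lay farthest from the other mutants in it, and *Mtm1* and its family. Of these a part is described. *Ehd2*, *Mki67*, *Cenpf*, *Top2a*, *Acta1*, *Cd74* and *H2-Eb1* lie outside the rule. Alternatives were other scaling factors, no filter or a minimum count of 30, DESeq2 1.42.0, limma-voom (limma 3.58.1), the 8 untreated libraries alone, a replicate block, and leaving out each library. The labels state no pairing by replicate number, and the main fit used none. RefSeq promoters of GRCm38.p6 were matched by gene symbol. Of the 15529 different symbols of the tested genes (4 symbols are shared by 2 genes each), 11126 had a promoter and 4403 none.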

Additional observations from a re-analysis of the deposited data

Results flagged for a closer look

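In 31 of 398 groups of 4 libraries (WT or Mtm1-/y, for each named gene and each list mean), the highest or lowest library stood apart, with a gap to its neighbour, as a share of the range of the group, over the 95% critical value of Dixon's test. Chance alone marks about 5% of groups of independent normal values. That rate does not apply here, because many genes were named for their values in these libraries. *Malt1* and *Spsb1*, for example, were named because mutant replicate 1 lay far from the other mutants. The tally for that library is thus in part a result of the choice of genes. Mutant replicate 1 accounted for 11 of the 16 mutant cases. It was the high library for *Lgals3* (a gap of 0.929 of the range), *Anxa4* (0.923), *Igfbp2* (0.896), *Mtmr14* (0.896), *Spsb1* (0.892), *Egln3* (0.887) and *Malt1* (0.849), and the low library for *Psap* (0.874), *Cacna2d4* (0.866), the mean of the phosphagen and adenylate list (0.92) and that of the red blood cell and platelet list (0.833). Mutant replicate 3 was the high library for *mt-Nd4* (0.965), *Ybx2* (0.936) and the mean of the citric acid cycle list (0.916), and the low library for *Psmb1* (0.844), in each of which it was the mutant library nearest to WT, and for the mean of the neutrophil list (0.914).

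WT replicate 1 accounted for 11 of the 15 WT cases. It was the high library for *Dsp* (1.0, with the only WT read), *Mmd* (0.902), *Snrpn* (0.9), *Rplp2* (0.871) and *Mstn* (0.844), and the low library for *Eda2r* (0.862), *Psmb1* (0.845), *Ltbp1* (0.831) and the means of the endothelial (0.884), autophagy and lysosome (0.844) and branched-chain amino acid (0.841) lists. WT replicate 2 was high for *Pdha1* (0.885), and WT replicate 3 was high for *Psmb4* (0.901) and low for the means of the tenocyte (0.884) and neutrophil (0.89) lists. What set these libraries apart was not tested.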

How the results depend on the processing

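The number of genes called was 4727 and lay between 3682 and 4747 when 1 of the 8 untreated libraries was left out (1878 to 2588 higher and 1804 to 2233 lower), and between 3939 and 5197 under other scaling factors, filters and tools. With an absolute log2 fold change over 1 required as well, 1536 genes remained in the count, 850 higher and 686 lower. Calls lost without mutant replicate 1 numbered 806, those lost without another library 515 to 1112, and 192 were lost when only the untreated libraries were fitted, an alternative chosen after seeing the data. With the replicate number as a block, 3123 genes were called (1507 higher and 1616 lower). Higher calls with the block numbered 8 in the glucocorticoid-responsive, 15 in the membrane repair, 15 in the proteasome and 27 in the cytosolic ribosome list. Lower calls numbered 13 in the citric acid cycle, 23 in the cell cycle and 13 in the endothelial list. The labels do not state that the numbers pair the samples. Deviations of same-numbered libraries correlated at -0.00408, -0.0939, -0.113 and 0.126, and those of other pairs at -0.141 to 0.209. Not every library correlated best with its own number, though both libraries numbered 4 did. The deviations are centred within each group of 4, so these values cannot decide whether the samples were paired. Among named genes the block ended the calls of *Tpm1*, *Tnnt3*, *Mybpc2*, *Ttn*, *Jph1* and *H2-Ab1*, beside genes that also lost theirs without single libraries. Of 141 called genes named above, 119 were called under all 16 alternatives, 125 with the replicate block and 132 without mutant replicate 1, and none changed sign. The uncalled *Mtmr14* had 0.32 ± 0.20, and -0.00998 to 0.457 when single libraries were left out, with the change of sign without mutant replicate 1. Among 52 lists of at least 10 tested genes, 17 had a median beyond 0.3 in absolute size (16 to 20 under the alternatives), and 10 changed the sign of the median in at least 1 alternative, 9 with medians of -0.05 to 0.18 and the tenocyte list with 0.40, which became -0.62 without mutant replicate 4. Group sizes of 4 limit the detection of small changes in genes that vary between mutants, such as those of connective tissue.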
